A study of Mus musculus with 2 samples.

Results

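The miR-378 family was examined in exosomal RNA of mouse BMSCs, the mesenchymal stem cells of bone marrow, which are multipotent stromal cells. Exosomes are small vesicles that cells release into their medium. The family had 5 members on the array (mmu-miR-378a-3p, mmu-miR-378a-5p, mmu-miR-378b, mmu-miR-378c and mmu-miR-378d) of 1881 mouse miRNAs in all. The members were chosen by name, and the family was picked because of its large differences between these same 2 arrays, so every difference below is a description and no test supports it. The study used commercial BMSCs from C57BL/6 mice. Both cultures received the same serum-containing medium, and the study's methods state that the serum was first depleted of exosomes. Exosomes were collected after 72 h either in normoxia, whose oxygen level the labels do not give, or at 0.2% oxygen in a hypoxic workstation. Each condition was 1 sample on 1 array of 1 colour, so no spread between cultures exists, and more vesicles cannot be told apart from more miRNA per vesicle.

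miRNAs are short RNAs that guide Argonaute proteins to messenger RNAs, largely through the seed, bases 2 to 8 from the 5′ end. The hairpin of miR-378a lies in an intron of Ppargc1b, the gene of a transcriptional coactivator of oxidative metabolism, and gives rise to a 3p and a 5p arm. miR-378a-3p is the arm best known in muscle, heart and fat, where it has been tied to energy metabolism, and it has also been tied to blood vessel growth and tumour cell survival. miR-378b, miR-378c and miR-378d are relatives from separate hairpins and are less studied.

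RefSeq mature sequences (GRCm38.p6) were matched by name for 3 of the 5 members. They are shown because the family name rests on their likeness, and because closely related RNAs may reach the same array probe. The seed is in capitals and the rest in lower case, 5′ to 3′.
mmu-miR-378b: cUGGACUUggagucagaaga
mmu-miR-378c: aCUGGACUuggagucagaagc
mmu-miR-378d: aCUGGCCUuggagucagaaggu

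All 3 sequences held the run CUUGGAGUCAGAAG, which has 14 bases and was found in only these 3 of the 1738 mature mouse sequences searched. miR-378b and miR-378c shared a longer run of 19 bases, CUGGACUUGGAGUCAGAAG, but miR-378b starts 1 base later, so their seeds differ in register. With positions counted from 1 at the 5′ end of miR-378c, miR-378b carried C21A. On the same count miR-378d carried A6C, which lies in the seed, and C21G, and it had 1 further U at its 3′ end. Each of the 3 seeds was found in 1 mature sequence of the table, that of the member itself. No sequence was matched by name for miR-378a-3p or miR-378a-5p. Whether these members hold the run of 14 bases, or share a seed with the others, was therefore not tested.

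miR-378b lies at chr11:88352839-88352858 on the + strand, inside the interval of Msi2, the gene of an RNA-binding protein, and forms the 3′ arm of its hairpin of 92 bases. miR-378c lies at chr14:46954905-46954925 on the − strand, within the intervals of Samd4 and the long non-coding RNA gene Gm52120, and forms the 5′ arm of its hairpin of 99 bases. miR-378d lies at chr10:126710355-126710376 on the − strand, in the 5′ arm of a hairpin of 110 bases that overlapped no other gene of the RefSeq table. Exon and intron were not separated for these intervals.

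The array measured each member with 2 probes, each printed at 15 spots, which makes 10 probes and 150 spots per array. The values are processed signals, that is, linear spot intensities after background subtraction by the scanner software. A value under 0 means that the spot lay under what the software subtracted, which is more than the local background. Spots that the software marked as outliers were left out, 1 in normoxia and 5 in hypoxia, and none of the family's spots was saturated. A probe with more than 50% of its remaining spots well above background was called detected, as was a miRNA with at least 1 such probe. SD and standard error (SE) are over spots of 1 array, which measure printing, hybridization and scanning only. Over all miRNA spots, 9.96% were well above background in normoxia and 8.59% in hypoxia. The software's median spot-to-spot variation was 9.68% and 15.8%, and it marked the hypoxia array for evaluation.

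On the normoxia array 2 of the 10 probes were detected, and on the hypoxia array 5 were. Over all 1881 miRNAs, 225 were detected in normoxia and 199 in hypoxia. miR-378a-3p and miR-378b were detected on both arrays, miR-378d on the hypoxia array only, and miR-378a-5p and miR-378c on neither. In spots, 33 of 149 were well above background in normoxia and 76 of 145 in hypoxia. The members that were measured were higher in hypoxic exosomes.

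**Figure D1:**
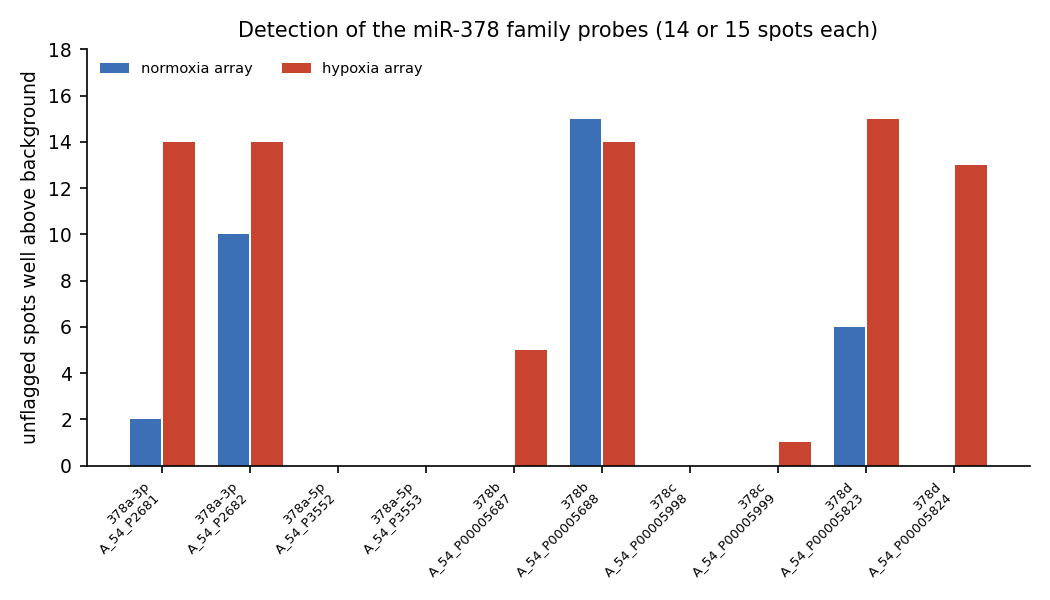
Number of unflagged spots well above background (vertical axis, of 14 or 15 spots) for each of the 10 miR-378 family probes, with 1 bar per array. Both miR-378a-3p probes and both miR-378d probes had more such spots in hypoxia, while the 2 probes of miR-378a-5p and 1 of miR-378c had 0 on both arrays.

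miR-378a-3p, the arm with known roles in muscle and fat, had 1 probe detected in normoxia and both in hypoxia. Its probe A_54_P2682 read a lowest, median and highest spot of 12.4, 17.1 and 25.2 in normoxia. In hypoxia the same probe read 92.1, 103 and 127. No spot of one array overlapped the other, and 14 of 14 spots at the same array position were brighter in hypoxia. Here and below, such spots are repeats within 1 array and not replicates of the condition. How many of all 4415 probes separate in this way was not counted. The means were 17.3 ± 3.43 (SD over 15 spots) and 105 ± 10.6 (SD over 14 spots), so the normoxia level was dim, with 10 of 15 spots well above background. The local background around these spots read 19.1 and 20.6, against raw spot medians that averaged 57.1 and 149.7. Raw medians lay above local background without signal too. The undetected miR-378a-5p probe A_54_P3552 read 37.6 over 19.3 in normoxia and 42.7 over 20.6 in hypoxia. Its processed means were −1.31 and −1.38, so the ratio to local background overstates a dim signal.

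The other miR-378a-3p probe, A_54_P2681, was not detected in normoxia, where 2 of 15 spots were well above background and the spots ran from 6.50 through a median of 11.2 to 18.5. In hypoxia its spots ran from 67.2 through 81.3 to 94.1, again with no overlap. Both probes of miR-378a-3p thus gave the same picture.

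miR-378b was measured by A_54_P00005688 alone. Its lowest, median and highest spots were 21.0, 31.1 and 37.3 in normoxia and 80.4, 106 and 125 in hypoxia. The arrays did not overlap, and 14 of 14 positions were brighter in hypoxia. If a flagged hypoxia spot at 31.7 is counted, they do overlap at that spot. The means were 31.7 ± 4.11 (SD over 15 spots) and 106 ± 12.5 (SD over 14 spots). The second miR-378b probe, A_54_P00005687, averaged 1.33 ± 3.48 (SD over 14 spots) in normoxia, inside the range of the negative control spots. It reached 14.4 ± 4.95 (SD over 15 spots) in hypoxia, where 5 of 15 spots were well above background, too few to be called detected.

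miR-378d carries the seed change A6C against miR-378c given above. Its probe A_54_P00005823 ran from 10.6 through a median of 15.3 to 19.4 in normoxia, where 6 of 15 spots were well above background. In hypoxia the spots ran from 41.7 through 65.0 to 73.0, all 15 were well above background, and there was no overlap. Its other probe, A_54_P00005824, averaged 5.75 ± 3.68 (SD over 15 spots) and 28.6 ± 7.84 (SD over 14 spots), with 0 and 13 spots well above background. That probe's arrays overlapped at its dimmest hypoxia spot, 6.53, though 14 of 14 positions were brighter in hypoxia.

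miR-378a-5p, the opposite arm of the miR-378a hairpin, was at background. Its probe A_54_P3552 averaged −1.31 ± 3.50 in normoxia and −1.38 ± 3.44 in hypoxia (SD over 15 spots), and A_54_P3553 averaged 2.07 ± 2.66 (SD over 15 spots) and 2.34 ± 2.23 (SD over 14 spots). The negative control spots averaged 4.28 ± 3.10 (SD over 964 spots) in normoxia and 4.28 ± 3.52 (SD over 979 spots) in hypoxia. The 5p arm was thus not measurable on either array, and no fold is given for it. A level below the detection limit of these probes cannot be told apart from none.

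miR-378c was not detected on either array, although it shares the run of 19 bases with miR-378b. Its probe A_54_P00005998 averaged −0.30 ± 4.13 and 0.73 ± 3.67 (SD over 15 spots), with 0 spots well above background. Its probe A_54_P00005999 averaged 7.04 ± 3.79 and 9.44 ± 3.91 (SD over 15 spots), with 1 of 15 spots well above background in hypoxia. The differences between arrays, 1.03 ± 1.43 and 2.40 ± 1.41 intensity units (SE over spots), were less than 2 SE. How far each probe binds related RNAs was not tested, since probe sequences were not used here, so the members are uncertain as separate measurements.

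**Figure D2:**
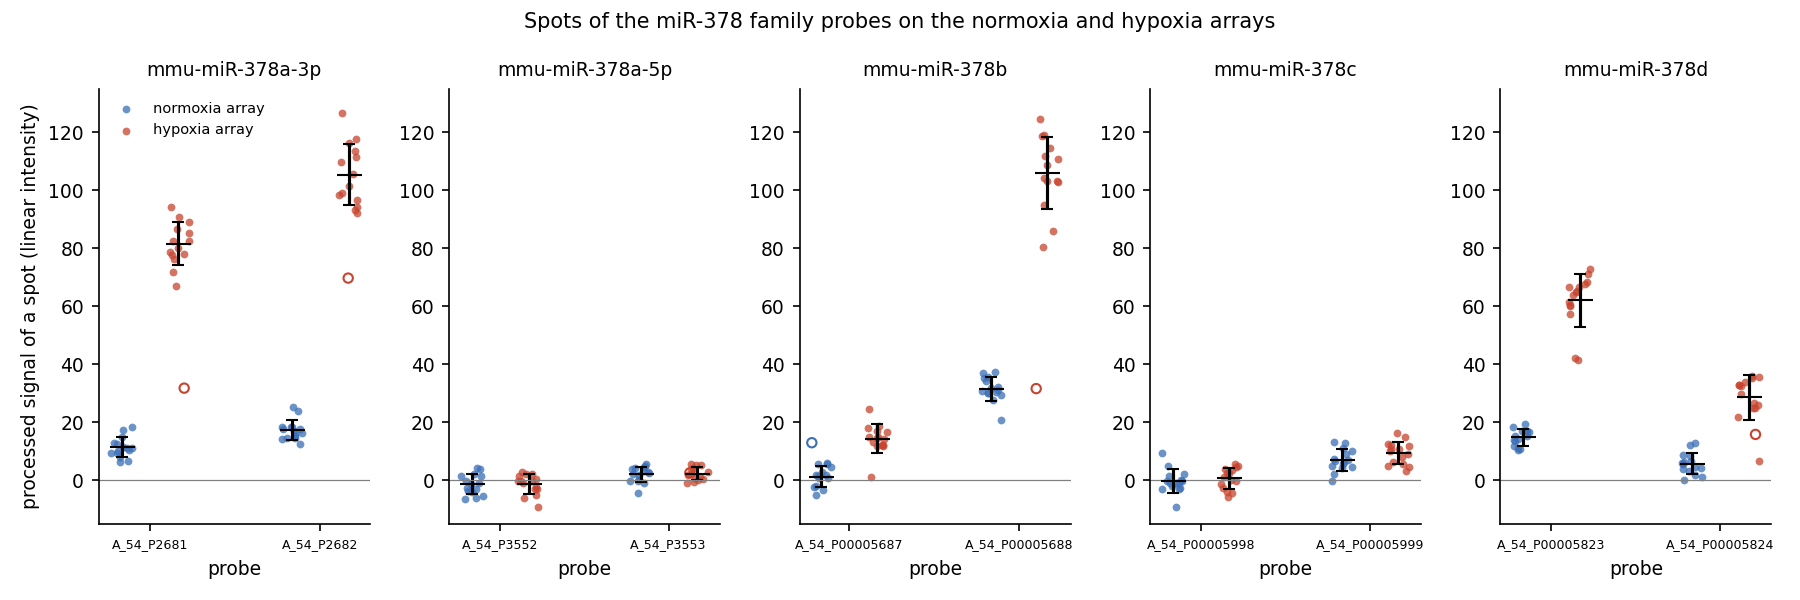
Processed signal (linear intensity, vertical axis) of every spot of the 10 miR-378 family probes, in 1 panel per member, with the normoxia array on the left and the hypoxia array on the right of each probe. Bars give the mean and SD over unflagged spots, and open circles are flagged spots that the mean leaves out. The hypoxia spots of both miR-378a-3p probes lie at 67.2 and above apart from 1 flagged spot at 31.8, while the spots of miR-378a-5p end at 5.62 and those of miR-378c at 16.4.

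To compare the arrays, probe means were quantile-normalized, which gives the arrays the same distribution of signals, and a log2 difference was taken as hypoxia minus normoxia. miR-378a-3p was higher in hypoxia by a log2 difference of 3.15 ± 0.083 (SE over spots), or 8.89-fold. miR-378b was higher by 2.36 ± 0.066 (SE over spots), or 5.14-fold. For miR-378d the hypoxia signal was set against its own normoxia signal, which was not called detected but was above the lowest detected one. By this ratio of measured means miR-378d was 6.40-fold higher, which is not a strict lower bound. Its dimmer probe gave at least 2.95-fold, and the probe of miR-378a-3p that was detected in hypoxia only gave at least 8.09-fold. Every one of these values passed the 2-fold threshold of the study's text.

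Among the 180 miRNAs detected on both arrays, 33 were at least 2-fold higher in hypoxia, or 18.3%, against both of the 2 members that could be measured so. Among the 19 miRNAs detected on the hypoxia array only, 9 had a bound of at least 2-fold, or 47.4%, and miR-378d was 1 of them. Since the family was picked on this contrast, nothing is read from these shares. The log2 differences of miR-378a-3p and miR-378b ranked 2 and 4 among the 180 in descending order. The median over the 180 was 0.17, so relative to it miR-378a-3p was higher by 2.98 and miR-378b by 2.19 on the log2 scale.

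**Figure D3:**
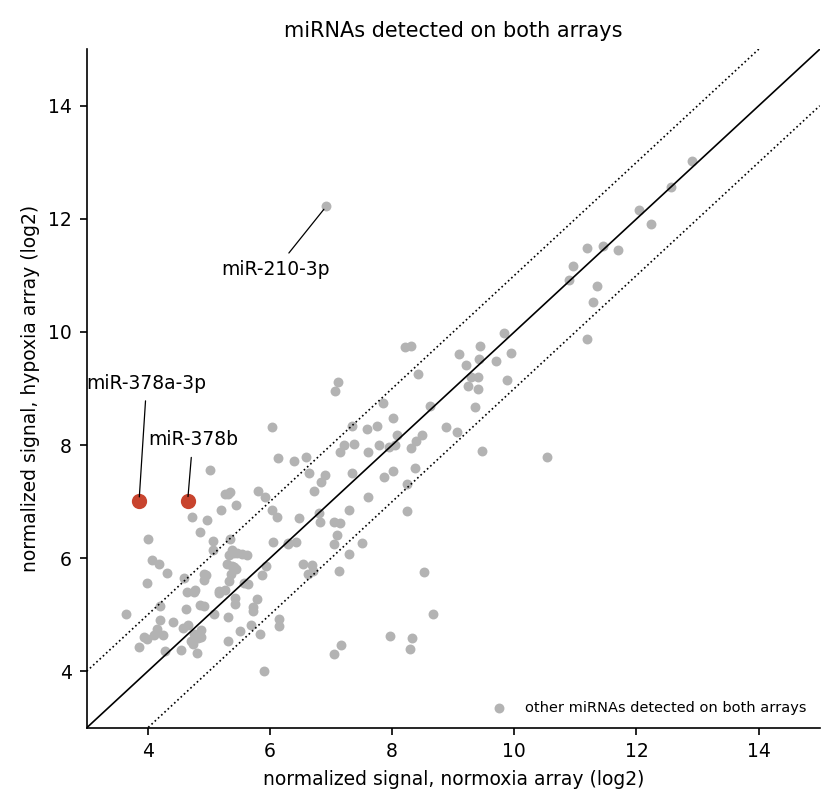
Quantile-normalized log2 signal of the 180 miRNAs detected on both arrays, with normoxia on the horizontal and hypoxia on the vertical axis; the solid line marks equal signal and the dotted lines a 2-fold difference. miR-378a-3p and miR-378b (large points) lie at the dim end in normoxia, at 3.86 and 4.65, and at 7.01 and 7.02 in hypoxia.

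The 2 measured members were then compared with each other. The log2 difference of miR-378a-3p exceeded that of miR-378b by 0.79 ± 0.11 (SE over spots). With every scaling by 1 factor per array this gap was 0.86, since such a factor cancels in it. With normexp, a background model with an offset of 50 that pulls dim signals together, it shrank to 0.17, and without a filter on dim probes it grew to 1.62, so its size depended on how dim spots were handled. Inside the array the difference itself was even. In the upper 192 rows, without normalization, miR-378a-3p differed by 2.59 (n = 11 spots per array) and in the lower rows by 2.61 (n = 4 and 3 spots). miR-378b gave 1.72 and 1.84 over the same numbers of spots.

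The scanner software also sums the signal of a miRNA over its detected probes. For miR-378a-3p the sum held both probes on each array and read 6.10 in normoxia and 39.7 in hypoxia. For miR-378b and miR-378d it held 1 probe in normoxia and both in hypoxia, so the sums of 6.71 and 25.5 for miR-378b, and of 3.14 and 19.2 for miR-378d, do not cover the same probes. The probe counted on both arrays read 6.71 and 22.5 for miR-378b and 3.14 and 13.2 for miR-378d, which the software called detected on both arrays. For miR-378a-5p and miR-378c it stood at the software's floor of 0.1 on both.

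How the arrays were scaled changed the size of the differences but not their direction. Without normalization miR-378a-3p was 6.08-fold, miR-378b 3.35-fold and miR-378d 4.19-fold higher. Of the miRNAs detected on both arrays, 11.1% were then at least 2-fold higher. When each array was scaled by the 75th percentile over its full set of probes, the same members were 11.6-fold, 6.37-fold and 7.97-fold higher. In that setting 32.2% of miRNAs were at least 2-fold higher. Normexp left 2.47-fold for miR-378a-3p and 2.19-fold for miR-378b, with 6.11% of miRNAs past 2-fold, and took miR-378d under the threshold, at 1.88-fold.

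**Figure D4:**
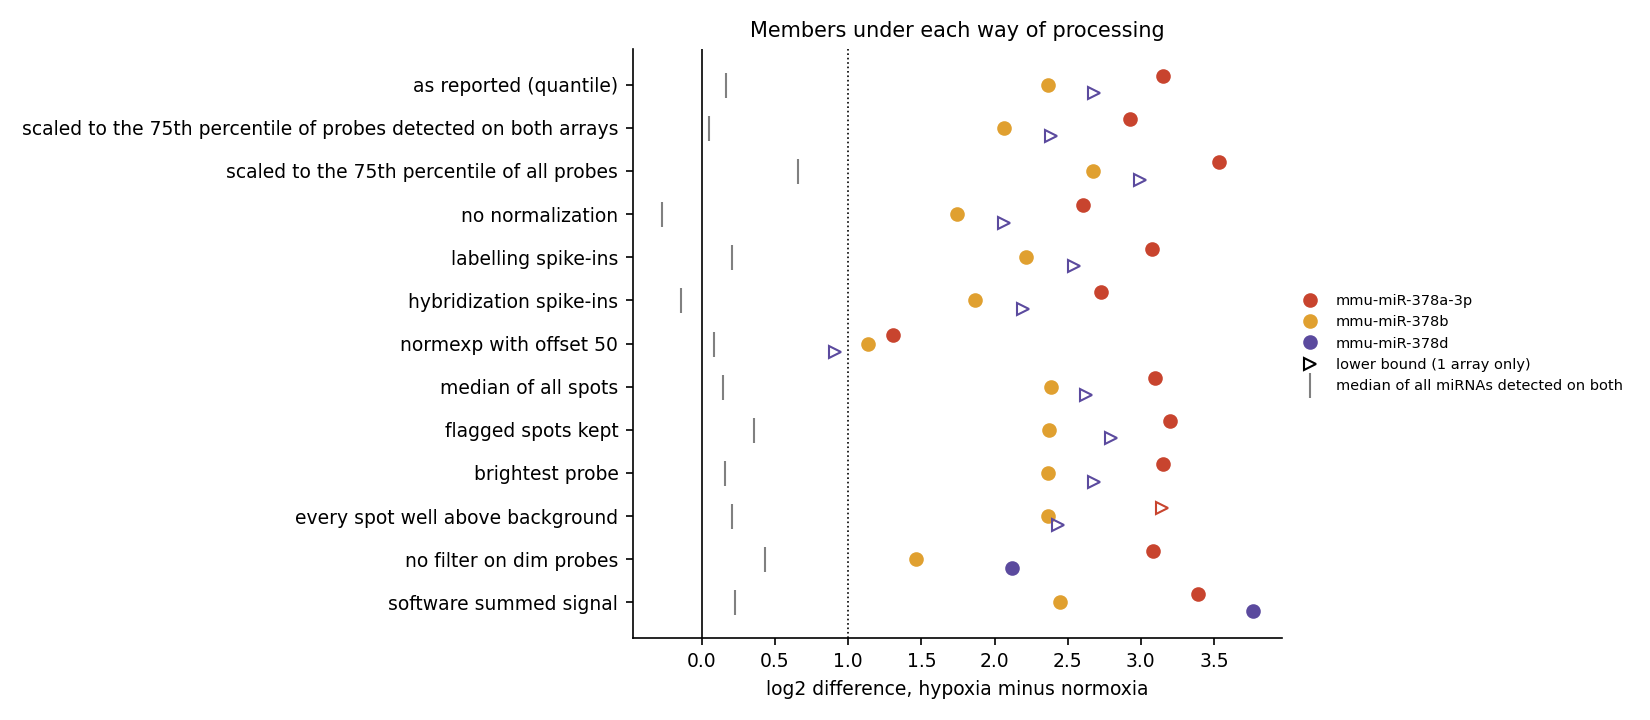
Log2 difference (hypoxia minus normoxia, horizontal axis) of miR-378a-3p, miR-378b and miR-378d under the reported processing and each of 12 alternatives. Filled circles are differences. Open triangles are values for a miRNA detected on 1 array, labelled lower bounds though not all are strict ones. Grey ticks are the median of the miRNAs detected on both arrays (of all 1881 where no filter was used), and the dotted line is 2-fold. Every member's symbol lies to the right of 0, and each member's normexp value is its smallest, with miR-378d at 0.91.

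The miRNAs whose pair of normalized levels lay nearest to a member were named as a description of likeness over 2 arrays. Nearest to miR-378a-3p were miR-185-5p, at a distance of 0.70 on the log2 scale, miR-378b at 0.80 and miR-34c-3p at 0.90. Their log2 differences were 2.32, 2.36 and 2.01. Nearest to miR-378b were miR-34c-3p at 0.29, miR-1839-5p at 0.46 and miR-615-3p at 0.57, with log2 differences of 2.01, 1.71 and 1.66. Signals of different probes are not amounts on a common scale, so this likeness covers position in these arrays only.

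Other groups of miRNAs were set beside the family. Of 18 miRNAs linked to hypoxia, 12 were measured on both arrays, of which 2 were at least 2-fold higher, 0 lower and 10 less than 2-fold apart. Over all 180 miRNAs 18.3% were at least 2-fold higher. Depending on the alternative, 1 to 3 of the list were at least 2-fold higher and 0 or 1 at least 2-fold lower. The list's median log2 difference was 0.19, close to that of all 180 miRNAs. Over the 12 alternatives it ran from −0.24 to 0.69, against −0.27 to 0.66 for all miRNAs measured on both arrays. miR-210-3p, the best known miRNA induced by low oxygen, was the highest at 5.30 ± 0.035 (SE over spots), and miR-20a-5p the lowest at −0.54 ± 0.039 (SE over spots). The family's 2 measured members lay between these ends. Of 14 miRNAs linked to metabolism and fat, 7 were measured on both arrays and 0 were 2-fold apart, against 4 of the 7 at least 2-fold higher when arrays were scaled by the 75th percentile of all probes and 1 when flagged spots were kept. Their median was 0.59 (0.089 to 1.02 over the alternatives) and they ran from −0.16 ± 0.074 for miR-365-3p to 0.87 ± 0.045 for miR-193b-3p (SE over spots). miR-122-5p and miR-103-3p of this list were detected in normoxia only. For miR-122-5p the bound was −2.05 on the log2 scale, while miR-103-3p gave no bound and so no measured decrease.

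Muscle is a tissue rich in miR-378a, so muscle-linked miRNAs were listed too. Of 8, 7 were detected on neither array, among them miR-1a-3p, miR-133a-3p and both miR-208 members. Only miR-206-3p was measured, at a normalized log2 value of 0.16 ± 0.083 (SE over spots) for hypoxia minus normoxia. The summed processed signal of the list's detected probes was 31.8 in normoxia and 22.0 in hypoxia before normalization, so the direction of miR-206-3p depended on the scaling.

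Markers were used to check the labelled cells. Of 8 mesenchymal miRNAs, 7 were detected on both arrays, with miR-145a-5p detected on neither. Their median log2 difference was 0.17 (−0.11 to 0.81 over the alternatives), with miR-21a-5p lowest at 0 and miR-214-3p highest at 1.20 ± 0.091 (SE over spots). Of 8 blood-cell miRNAs, 4 were detected in normoxia and 2 in hypoxia, and miR-142a of both arms, miR-150-5p and miR-486a-5p were detected on neither. miR-144-3p and miR-223-3p were detected in normoxia only, with bounds of −0.21 and −0.32 on the log2 scale. No 2-fold decrease was thus measured for either. miR-451a, a red blood cell miRNA, was lower in hypoxia, with a normalized log2 value of −3.66 ± 0.057 (SE over spots), and miR-16-5p differed by 0.015 ± 0.045 (SE over spots). The summed processed signal of the blood list was 5832 in normoxia and 4040 in hypoxia, and that of the mesenchymal list was 33615 and 28932. These sums were taken before normalization over the probes detected on each array, so the blood sums do not cover the same miRNAs. The normalized log2 level of miR-16-5p was 10.9 on both arrays, against 8.68 in normoxia and 5.02 in hypoxia for the jointly detected probe of miR-451a. The blood sums thus rested largely on miR-16-5p, and they are no measure of blood-cell content. The part of other cells in the family's values was not tested.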

How the data were processed

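Exosomal RNA of normoxic and hypoxic BMSCs was measured on 2 arrays of the same slide and scan, so position on the slide and condition cannot be told apart. The study's methods name Agilent's miRNA labelling kit, while the labels describe reverse transcription of total RNA. Per the file headers, the authors extracted images with Feature Extraction 11.5.1.1; the deposited intensity values are its processed signals, with background and spatial trend subtracted and no scaling between arrays. The deposited value table equalled them (largest difference 0).

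Spots with any of 4 outlier flags were removed, spots of a probe averaged, and the 4415 probe means quantile-normalized, as the study names. A difference is the mean over probes detected on both arrays. Otherwise the bright probe was set against its own signal on the dim array, or that array's lowest detected signal where this was higher. The result is called a bound, and only in the latter case is it a strict limit. The SE follows from the spot SD. Functions were tested on simulated data. Python 3.11.15 and, for normexp on median pixel signals, limma 3.58.1 in R 4.3.3 were used. No test was run, since each condition has 1 array, whose number limits the precision.

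The members and all 5 lists were chosen with earlier results of these data known. Named were all members, the 3 miRNAs nearest to each measured member, and the ends of each list; other marker and list miRNAs were named after their values were seen. A median is given for lists with at least 3 measured miRNAs.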

Additional observations from a re-analysis of the deposited data

How the results depend on the processing

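No paired analysis was possible because a single array stands for each condition, and leaving out a replicate does not apply. Under the 12 alternatives miR-378a-3p, miR-378b and miR-378d stayed higher in hypoxia. All 3 passed 2-fold except with normexp, where 2 did, with a bound counted for a member detected on 1 array only. The share of all compared miRNAs at least 2-fold higher ran from 1.7% without a filter on dim probes to 32.2% with the 75th percentile of all probes. Nothing is read from these shares, since the family was picked on this contrast. The alternatives are not 12 separate checks. Taking the brightest probe could not change a member, since each value already rested on a single probe. Scalings by a factor per array, and no normalization, differ from each other only by a constant shift. Moves were set against the spot SD on the log2 scale. This SD covered both arrays for miR-378a-3p (0.32) and miR-378b (0.25). For miR-378d it covered the hypoxia array only (0.21), so values of miR-378d were more readily counted as moved. Member values that moved by more than this SD were as follows. With arrays scaled by the 75th percentile of the jointly detected probes, miR-378b was 2.06 and miR-378d 2.39. With that of all probes, miR-378a-3p was 3.53, miR-378b 2.67 and miR-378d 2.99. Without normalization they were 2.60, 1.74 and 2.07, and with the hybridization spike-ins 2.73, 1.87 and 2.19. Normexp gave 1.30, 1.13 and 0.91. Without a filter on dim probes, where only signals below the lowest detected one are set to it, miR-378b was 1.46 and miR-378d 2.12. When all spots of a probe had to be well above background, miR-378d was at least 2.43 and miR-378a-3p had only a bound, 3.15. The software's summed signal gave 3.76 for miR-378d, with 1 probe in the normoxia sum and 2 in the hypoxia sum. The causes were not tested. Without normalization the median of all miRNAs was −0.27, that of the hypoxia list −0.24 and that of the mesenchymal list −0.11. With the hybridization spike-ins the first 2 were −0.14 and −0.12, and with the 75th percentile of all probes the 3 were 0.66, 0.69 and 0.81. The median of the metabolism list was 1.02 in the last setting, 0.089 without normalization, 0.21 with the hybridization spike-ins and 0.28 with normexp. Without a filter the median of all miRNAs was 0.43, and with flagged spots kept that of the mesenchymal list was 0.42. Dim signals set the limit, since detected probes began at a processed signal of 14.5 on the normoxia and 13.5 on the hypoxia array, close to the normoxia levels of miR-378a-3p and miR-378d.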

Other observations

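Of the 5 family spots flagged as outliers on the hypoxia array, 4 belonged to probes detected there, and each of these was dimmer than its probe's median. They read 31.8 and 69.8 for the probes of miR-378a-3p, 31.7 for miR-378b and 15.8 for miR-378d, and the last lay within the range of the spots kept. On the normoxia array the 1 flagged spot, at 13.0 on the undetected probe of miR-378b, was brighter than the spots kept, which ended at 6.11. Keeping all flagged spots gave log2 differences of 3.20 for miR-378a-3p and 2.37 for miR-378b, and a bound of 2.79 for miR-378d.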
